A study of Mus musculus with 10 samples.

Results

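The genes described here are those of the antioxidant and glutathione defence, followed across the quadriceps muscle of 5 inbred mouse strains. Members were chosen by gene symbol alone: every feature with a single symbol that begins with Gst, Gpx, Prdx, Txn, Gcl, Hmox or Sod plus a digit, and those named Cat, Park7, Gsr, Nqo1, Mt1, Mt2 or Mt3. This rule found 37 of the 7697 features tested, for 35 genes, since Cat and Nqo1 each had a pair of features with different GenBank identifiers. The metallothioneins Mt1, Mt2 and Mt3 matched 0 features, so the metallothionein side of this defence was not analysed here. The strains were CBA/CaOlaHsd (CBA), C57Bl/10ScSnOlaHsd (BL10), C57Bl/6JOlaHsd (BL6), DBA/2OlaHsd (DBA) and BALB/cOlaHsd (BALB), all healthy wild types with no treatment and no transgene. From each strain 2 male mice, bought when 6 weeks old and killed at 8 weeks, gave total RNA of the m. quadriceps femoris, and 1 μg of each was labelled with Cy5 or Cy3 and hybridised against an animal of another strain.

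Superoxide dismutases turn superoxide into hydrogen peroxide, which catalase, glutathione peroxidases and peroxiredoxins remove. Glutathione, made in a chain that starts with glutamate-cysteine ligase and kept reduced by glutathione reductase, feeds the peroxidases and the glutathione S-transferases, while thioredoxin and its reductases keep the peroxiredoxins reduced. Many of these genes carry antioxidant response elements, the sites through which the transcription factor NRF2 raises them under oxidative stress. In skeletal muscle this defence handles the oxidants made by mitochondria and by contraction.

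Of the 10 arrays, the one of BL6 2 with CBA 1 and the one of BALB 1 with CBA 2 held the same value at each of the 15552 spots. Which animals gave those values could not be settled, so both arrays were left out. The 8 arrays left formed a chain of 3 (CBA 1, BL10 1, BALB 2, BL6 2) and a chain of 5 (CBA 2, BL10 2, DBA 1, BL6 1, DBA 2, BALB 1), each animal being in Cy5 over the next one in Cy3. CBA 1, CBA 2, BL6 2 and BALB 1 thus had 1 array each, and both CBA animals were in Cy5 and against BL10. A difference of CBA from the other strains therefore rested on the dye effect estimated for each feature on the other arrays. Values are log2 ratios of Cy5 over Cy3, each the mean of duplicate spots, or log2 strain levels relative to the mean of the 5 strains, with the standard error (SE) of the fit. A ratio holds no level, so neither the tissue label nor the presence of a gene could be checked against background, and levels were not compared between genes. In whole muscle, fewer cells of a type and less RNA per cell cannot be told apart.

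In the test over all 5 strains no antioxidant gene stood out from the spread between animals. At a false discovery rate (FDR) of 10% in limma's moderated F test, 0 of the 37 members were called, against 0.130% of all features, and the smallest adjusted p among members was 0.149, for Park7. At an unadjusted p under 0.05, 5 members passed (Park7, Gsr, Gclc, Gsto1 and Sod1), which is 13.5% of the members beside 14.0% of all features. An ordinary test without the spread shared across features also called 0 members. The distance between the lowest and highest strain level had a median of 0.52 over the members and 0.45 over all features. It ran from 0.12 for Gpx4, the peroxidase of oxidised membrane lipids, to 1.36 for Park7, which encodes the redox-sensitive protein DJ-1. With 2 animals a strain, the median SE over all features of a strain against the other 4 was 0.13 for DBA, 0.13 for BL10, 0.16 for BALB, 0.16 for BL6 and 0.23 for CBA.

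**Figure D1:**
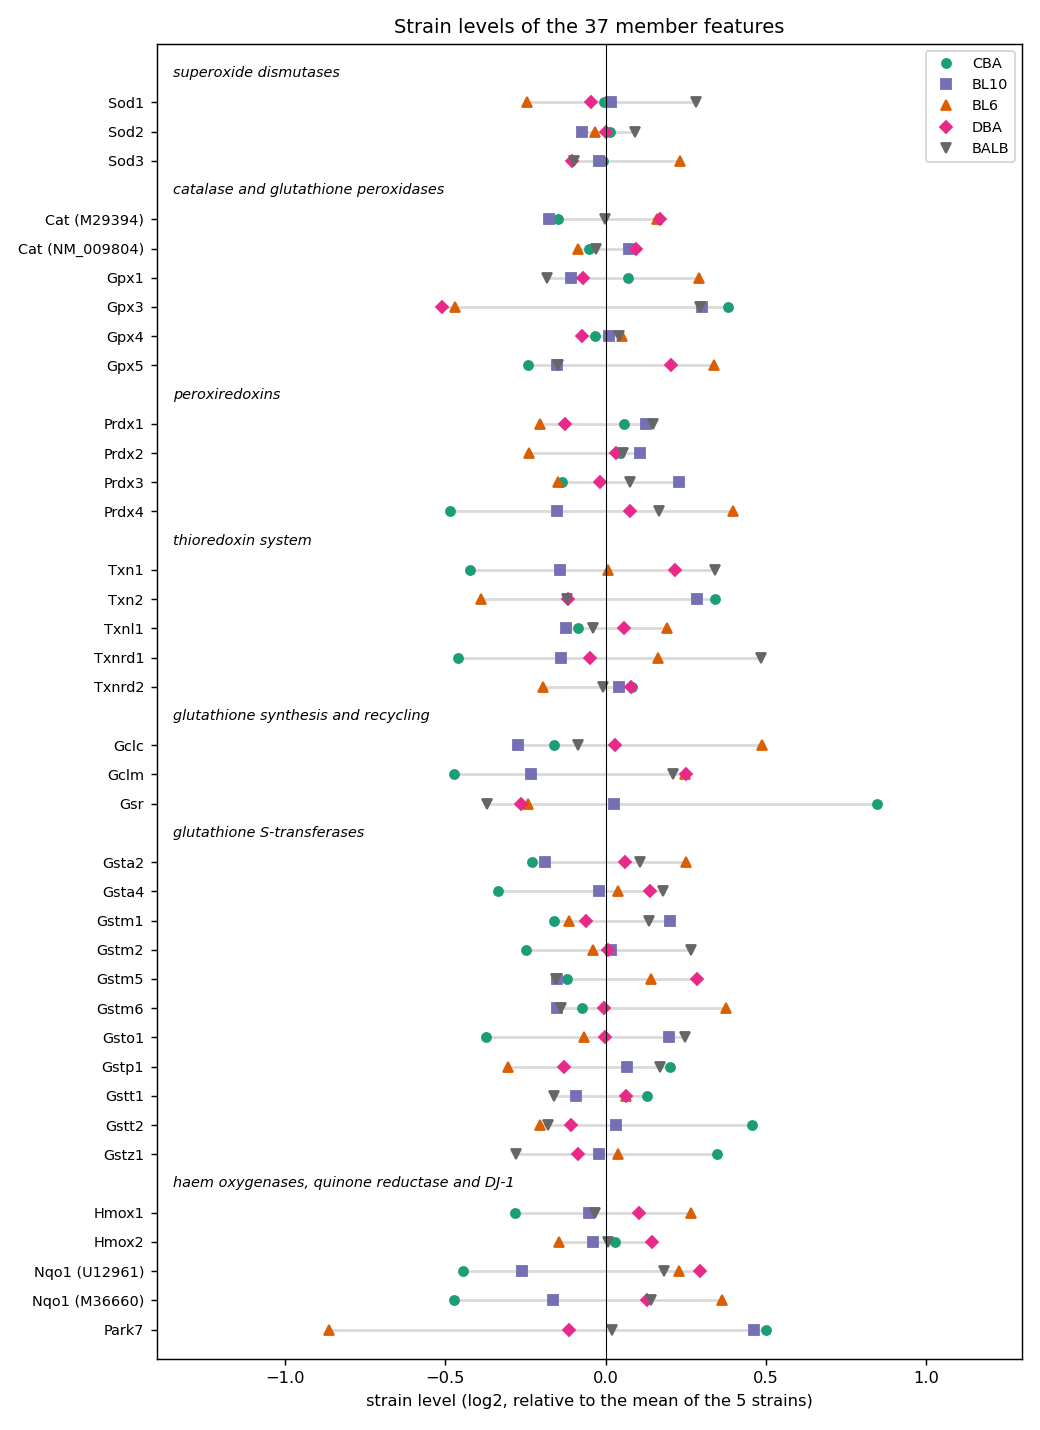
Log2 strain level of each of the 37 features, relative to the mean of the 5 strains (x axis), ordered by class (y axis), with 1 symbol per strain and a grey line from the lowest to the highest level. The longest lines are those of Park7, with BL6 low at -0.86, and of Gsr, with CBA high at 0.85, and most features lie within 0.5 of the mean in every strain.

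The superoxide dismutases spanned 0.17 to 0.53 between strains. Sod1, the copper-zinc enzyme of the cytosol, gave a log2 ratio of 0.25 for CBA 1 over BL10 1, -0.15 for BL10 1 over BALB 2 and 0.58 for BALB 2 over BL6 2. In the longer chain it gave -0.069 for CBA 2 over BL10 2, 0.16 for BL10 2 over DBA 1, 0.41 for DBA 1 over BL6 1, -0.048 for BL6 1 over DBA 2 and -0.31 for DBA 2 over BALB 1. BL6 was the lower animal on each of its 3 arrays and BALB the higher on each of its 3 arrays. The strain levels were -0.25 in BL6, -0.046 in DBA, -0.0066 in CBA, 0.016 in BL10 and 0.28 in BALB (limma's F test, adjusted p = 0.355). Sod3, the secreted enzyme, lay between -0.11 in DBA and 0.23 in BL6 (adjusted p = 0.562). Sod2, the manganese enzyme of mitochondria, spanned only 0.17 (adjusted p = 0.920).

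The enzymes that remove hydrogen peroxide showed no member at an unadjusted p under 0.05 among 6 features of catalase and the glutathione peroxidases and 4 of the peroxiredoxins. The pair of catalase features gave different orders of the strains. The feature M29394 ran from -0.18 in BL10 to 0.17 in DBA and NM_009804 from -0.085 in BL6 to 0.095 in DBA, with adjusted p = 0.732 and 0.783. Gpx3, the glutathione peroxidase of plasma, had the widest range of these enzymes, with levels of 0.38 in CBA, 0.30 in BL10, 0.29 in BALB, -0.47 in BL6 and -0.51 in DBA (adjusted p = 0.450). The SE of these levels ran from 0.23 in DBA to 0.42 in CBA. After the dye correction DBA 1 was at -0.18 and DBA 2 at -1.20, and BL6 1 at -0.84 and BL6 2 at -0.44. The array of DBA 2 over BALB 1 read -1.72. The 5 fat marker features had medians of 0.19 in CBA, 0.28 in BL10, -0.028 in BALB, -0.52 in BL6 and -0.51 in DBA. Among these markers Fabp4 was at 0.76 in BL10 and -0.84 in BL6, while Adipoq, which defines fat cells, lay between -0.12 and 0.15. Their part in the Gpx3 levels was not tested. Gpx1, the peroxidase of the cytosol, lay between -0.18 in BALB and 0.29 in BL6 (adjusted p = 0.522), and Gpx4 and Gpx5, a peroxidase known from the epididymis, had adjusted p-values of 0.954 and 0.693.

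Among the peroxiredoxins, which reduce peroxides through a cysteine, Prdx4 of the endoplasmic reticulum had the smallest p. Its levels were -0.49 in CBA, -0.15 in BL10, 0.075 in DBA, 0.17 in BALB and 0.40 in BL6 (adjusted p = 0.382). BL6 over the other 4 strains was 0.49 (SE 0.14), with an adjusted p of 0.230. Prdx3, the mitochondrial enzyme, lay between -0.15 in BL6 and 0.23 in BL10 (adjusted p = 0.432), and Prdx1 and Prdx2 each spanned 0.35.

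In the thioredoxin system, 0 of 5 features reached an unadjusted p under 0.05, and the median range of 0.73 was among the wider ones. Txn1, the thioredoxin of the cytosol, had levels of -0.42 in CBA, -0.14 in BL10, 0.0075 in BL6, 0.22 in DBA and 0.34 in BALB (adjusted p = 0.361). Txnrd1, the reductase that recharges it, was also lowest in CBA at -0.46 and highest in BALB at 0.49 (adjusted p = 0.409). It differed in order between, with -0.050 in DBA and 0.16 in BL6. Without a dye term, CBA over the other 4 strains went from -0.58 to 0.0015 for Txnrd1 and from -0.53 to 0.39 for Txn1. On DBA 2 over BALB 1 the Txnrd1 spots read -0.047 and -0.95. The mitochondrial partners ran otherwise, with Txn2 highest in CBA at 0.34 and lowest in BL6 at -0.39, and Txnrd2 within 0.28. Txnl1, a thioredoxin-like protein, spanned 0.32.

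The 3 genes of glutathione synthesis and recycling held 2 of the 5 members at an unadjusted p under 0.05. Gsr, the reductase that returns oxidised glutathione to its reduced form, gave log2 ratios of 0.21 for CBA 1 over BL10 1, -0.42 for BL10 1 over BALB 2 and -0.80 for BALB 2 over BL6 2. In the longer chain the ratios were 0.059 for CBA 2 over BL10 2, -0.25 for BL10 2 over DBA 1, -0.76 for DBA 1 over BL6 1, -0.73 for BL6 1 over DBA 2 and -0.45 for DBA 2 over BALB 1. Only the arrays with CBA in Cy5 were above 0, and the 6 others were all below 0 whichever strain was in Cy5.

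The fit gave Gsr a dye estimate of -0.68 and a level of 0.85 in CBA, 0.027 in BL10, -0.24 in BL6, -0.26 in DBA and -0.37 in BALB (adjusted p = 0.197). CBA over the other 4 strains was 1.06 (SE 0.22), which limma did not call (adjusted p = 0.352). Without a dye term the same contrast was -0.18. The dye-balanced pair of arrays, DBA 1 over BL6 1 and BL6 1 over DBA 2, gave a dye estimate of -0.75 by itself. Of the leukocyte markers, C1qa was at 1.23 and Cd68 at 1.05 in CBA, where the 7 features of that list had a median of 0.33. The other marker lists with a CBA median over 0.1 were fibroblasts (0.34), fat (0.19) and nerve (0.15). Like that of Gsr, these CBA levels rest on dye estimates. The part of the markers in the Gsr level was not tested.

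Gclc, the catalytic subunit of glutamate-cysteine ligase, which catalyses the first and limiting step of glutathione synthesis, was highest in BL6. Its log2 ratio was 0.42 for CBA 1 over BL10 1, -0.025 for BL10 1 over BALB 2 and -0.25 for BALB 2 over BL6 2. The longer chain gave 0.25 for CBA 2 over BL10 2, -0.014 for BL10 2 over DBA 1, -0.38 for DBA 1 over BL6 1, 0.63 for BL6 1 over DBA 2 and 0.46 for DBA 2 over BALB 1. BL6 was the higher animal on each of its 3 arrays. After the dye correction the BL6 animals were at 0.57 and 0.43, and the highest of the other 8 animals, DBA 2, was at 0.16. BL6 over the other 4 strains was 0.61 (SE 0.15, adjusted p = 0.215), and BL6 over DBA on the dye-balanced pair of arrays was 0.51.

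Gclm, the modifier subunit of the same ligase, followed another order, with -0.47 in CBA, -0.23 in BL10, 0.21 in BALB, 0.25 in BL6 and 0.25 in DBA (adjusted p = 0.420). On the dye-balanced pair, BL6 over DBA was -0.027 for Gclm.

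Of the 11 glutathione S-transferases, which join glutathione to reactive compounds, 1 reached an unadjusted p under 0.05. Gsto1, of the omega class, gave log2 ratios of -0.45 for CBA 1 over BL10 1, 0.30 for BL10 1 over BALB 2 and 0.38 for BALB 2 over BL6 2. The longer chain gave -0.43 for CBA 2 over BL10 2, 0.086 for BL10 2 over DBA 1, 0.35 for DBA 1 over BL6 1, 0.21 for BL6 1 over DBA 2 and -0.38 for DBA 2 over BALB 1. Both CBA animals were thus below BL10, with levels of -0.37 in CBA, -0.068 in BL6, -0.0030 in DBA, 0.20 in BL10 and 0.25 in BALB (adjusted p = 0.355). Gstp1, of the pi class, came next, with BL6 lowest at -0.31 and CBA highest at 0.20 (adjusted p = 0.378). The other 9 (Gsta2, Gsta4, Gstm1, Gstm2, Gstm5, Gstm6, Gstt1, Gstt2 and Gstz1) spanned 0.29 to 0.66. The mu class genes are close paralogs, and how far their oligonucleotides respond to each other was not tested.

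Hmox1, the inducible enzyme that breaks down haem, lay between -0.28 in CBA and 0.27 in BL6 (adjusted p = 0.547), and its constitutive relative Hmox2 spanned 0.29. Nqo1, a quinone reductase widely used as a readout of NRF2, had a pair of features, and CBA and BL10 were lowest in both. U12961 had levels of -0.44 in CBA, -0.26 in BL10, 0.18 in BALB, 0.23 in BL6 and 0.30 in DBA (adjusted p = 0.407). M36660 had -0.47 in CBA, -0.16 in BL10, 0.13 in DBA, 0.14 in BALB and 0.36 in BL6 (adjusted p = 0.477). Their dye estimates were 0.53 and -0.15, and without a dye term CBA over the other 4 strains turned to 0.43 for U12961 and stayed below 0, at -0.87, for M36660.

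Park7 was the only member called in a strain against the mean of the other 4, and its call rested on 1 spot. Its log2 ratio was -0.44 for CBA 1 over BL10 1, -0.053 for BL10 1 over BALB 2 and 0.45 for BALB 2 over BL6 2. The longer chain gave -0.26 for CBA 2 over BL10 2, 0.31 for BL10 2 over DBA 1, 0.38 for DBA 1 over BL6 1, -1.20 for BL6 1 over DBA 2 and -0.44 for DBA 2 over BALB 1. BL6 was the lower animal on each of its 3 arrays, and the array of BL6 1 over DBA 2 stood apart from the other 7.

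The Park7 levels were -0.86 in BL6, -0.12 in DBA, 0.019 in BALB, 0.46 in BL10 and 0.50 in CBA. They rest on a dye estimate of -0.39, to which the array of BL6 1 over DBA 2 contributed. Without a dye term, CBA over the other 4 strains turned from 0.62 to -0.078. The contrast of BL6 with the mean of the others was -1.08 in log2 (SE 0.16, limma's adjusted p = 0.0947), where 0.0650% of all features were called lower in BL6. On the array of BL6 1 over DBA 2 the first spot of Park7 read -2.48 and the second 0.057. This difference of 2.53 was the largest of the 296 pairs of member spots, whose median was 0.13, while on the other 7 arrays the Park7 spots differed by 0.018 to 0.32. With the second spot alone on that array the contrast was -0.19 (SE 0.16, adjusted p = 0.523), without BL6 1 it was -0.26 (adjusted p = 0.724), and without BL6 2 it was -1.13 (adjusted p = 0.118). On that array 26 of all features had spots that differed by more than 2, and the next largest difference among members, 1.83, was that of Hmox1 on the array of DBA 1 over BL6 1.

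**Figure D2:**
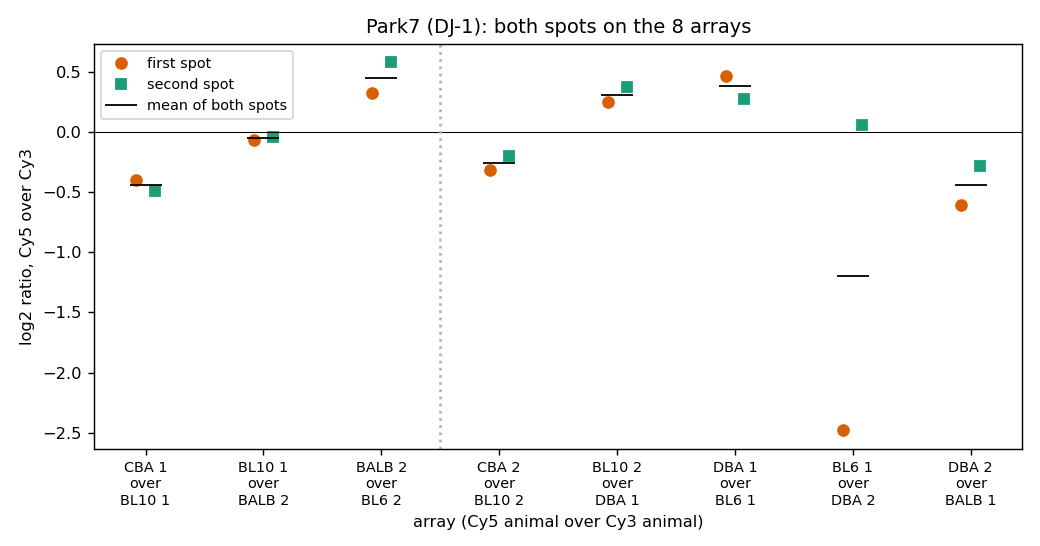
Log2 ratio of Cy5 over Cy3 (y axis) of both Park7 spots and their mean on the 8 arrays (x axis), with a dotted line between the chain of 3 and the chain of 5. The spots lie within 0.32 of each other on 7 arrays, and on BL6 1 over DBA 2 they read -2.48 and 0.057.

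Fibroblast markers were low in BL6, at a level of -1.0 for Col3a1 and -0.65 for Col1a1. All 4 features of that list were below the mean of the strains there (median -0.50). Their part in the Park7 level, whose size in BL6 rested on 1 spot, was not tested. In CBA, BL10, DBA and BALB against the mean of the other 4 strains, 0 members were called, beside 0.0780% of all features. At an unadjusted p under 0.05 in either direction, 8 members passed in CBA beside 11.5% of all features, 4 in BL10 beside 7.63%, 6 in BL6 beside 15.0%, 3 in DBA beside 5.64% and 6 in BALB beside 11.3%.

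Of the 10 pairs of strains, BL6 against BALB was the only pair with members called. Park7 was lower in BL6, with a log2 difference of -0.88 (SE 0.14, limma's adjusted p = 0.0572). Sod1 was lower too, at -0.53 (SE 0.14, adjusted p = 0.0977), and Gclc was higher, at 0.57 (SE 0.14, adjusted p = 0.0828). These 3 of 37 members stand beside 4.52% of all features called in that pair, and 9 members reached an unadjusted p under 0.05 beside 22.0% of all features. The other 6 of those 9 were Gstp1 at -0.47, Gstm6 at 0.52, Txn1 at -0.33, Gstm2 at -0.30, Gpx3 at -0.76 and Gpx1 at 0.47, none of them called. In the other 9 pairs 0 members were called, beside 0.104% of all features called in at least 1 of those pairs. At an unadjusted p under 0.05, 3 to 7 members a pair passed beside 5.26% to 13.4% of all features, and 16 members passed in at least 1 of the 9 pairs beside 34.6% of all features.

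The called differences were of similar size in the separate chains of arrays. The dye estimate taken off both chains came from a fit with strain terms common to both. Their similarity is therefore partly built in and is no independent replication. In BALB over BL6, Sod1 was 0.47 in the chain of 3 and 0.58 in the chain of 5, and Gclc was -0.47 and -0.65. Park7 was 0.83 and 0.87 there, but with the second spot alone on BL6 1 over DBA 2 its difference between BL6 and BALB was -0.49 and no longer called (adjusted p = 0.103). Under 25 other settings and left-out animals, the adjusted p stayed under the threshold in 15 for Park7, 9 for Gclc and 8 for Sod1, and the sign of none of the 3 changed. Among the fits counted for Gclc and Sod1 were some with 1 residual degree of freedom. The fit of duplicate spots as separate measurements was counted too. These counts therefore do not measure how stable the calls were. Leaving out an animal removed all of its arrays and left 1 animal in its strain. CBA 1 was lost along with BL10 1 and CBA 2 with BL10 2. BL6 2 was lost with BALB 2, which left 1 animal each of BL6 and BALB. Over the 9 fits that could be made, BL6 minus BALB ran from 0.42 to 0.85 for Gclc and from -0.71 to -0.46 for Sod1. Park7 was at -0.47 without BL6 1. The 5 fast muscle marker features had medians of 0.089 in BL6 and 0.38 in BALB, and 2 of them, Tnnt3 at -0.60 and Acta1 at -0.17, were below the mean of the strains in BL6. Their part in the Sod1 difference was not tested.

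**Figure D3:**
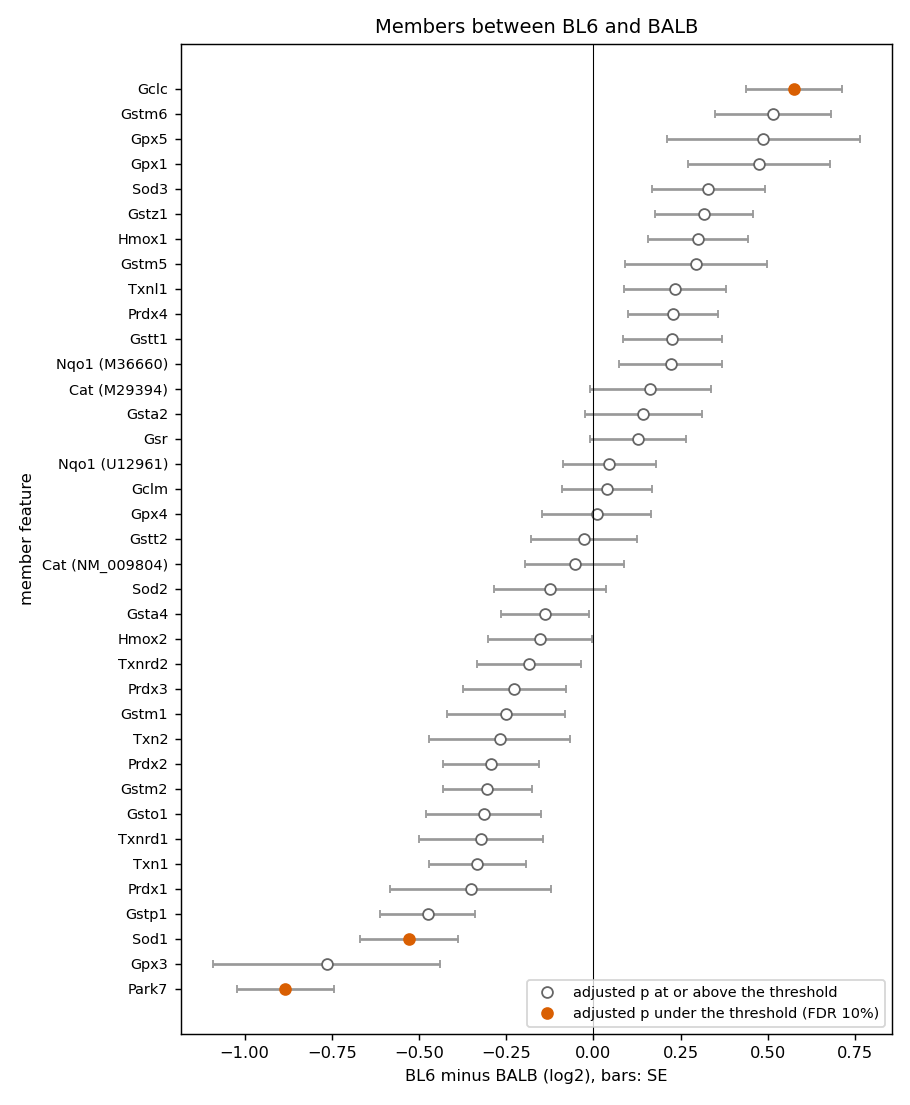
Log2 difference of BL6 minus BALB (x axis) with its SE for each of the 37 members (y axis), sorted by size, with the members past an FDR of 10% filled. Park7 at -0.88, Sod1 at -0.53 and Gclc at 0.57 are filled, and Gpx3 at -0.76 is not, with an SE of 0.33.

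**Figure D4:**
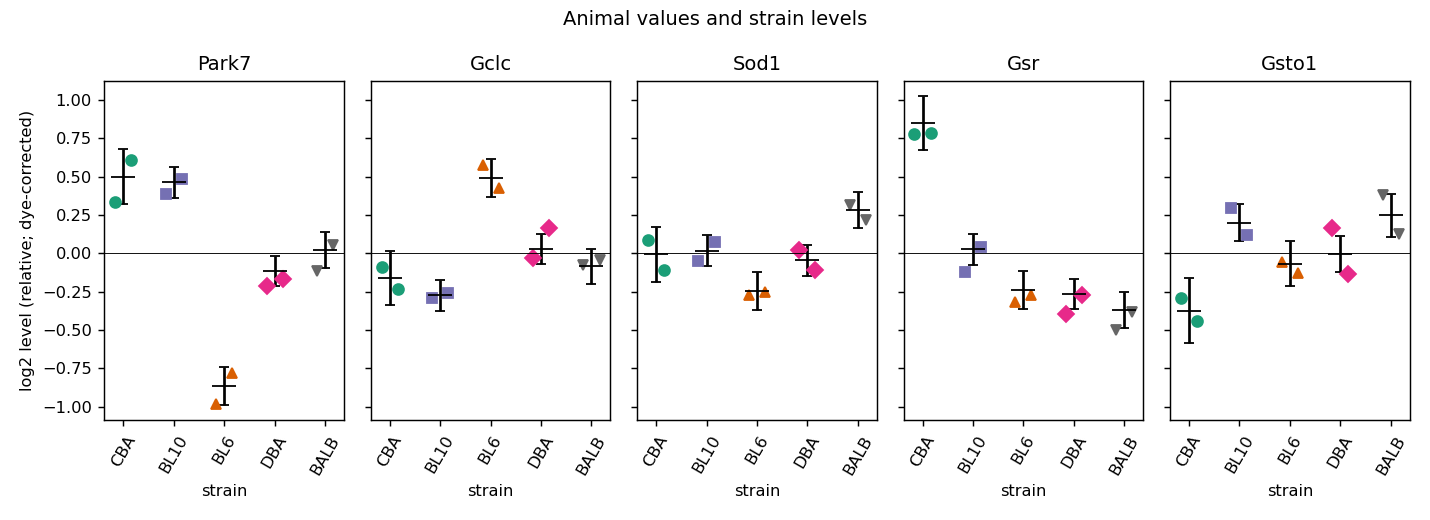
Dye-corrected log2 values of the 2 animals of each strain (symbols, centred within each chain on its CBA, BL10, BL6 and BALB animals) and strain levels with their SE (black bars, 0 being the mean of all strains) for the 5 members at an unadjusted p under 0.05. Both BL6 animals of Gclc, at 0.57 and 0.43, lie above all other animals, and the CBA animals of Gsr lie at 0.77 and 0.78.

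CBA was the strain farthest from the mean in 11 of the 37 members and BL6 in 14, beside 44.1% and 26.7% of all features. In 10 of the 11 members where CBA lay farthest, its difference had the sign opposite to the dye estimate, and without a dye term 5 of the 11 kept their sign. Over all 37 members 18 kept the sign of the CBA difference. Prdx4 and Gsto1 were among those that kept it, at -0.60 and -0.25 without the dye term, while Gsr, Gclm and Txn1 changed sign. The errors of the CBA difference and of the dye estimate are tied by the design, since both CBA animals were in Cy5.

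**Figure D5:**
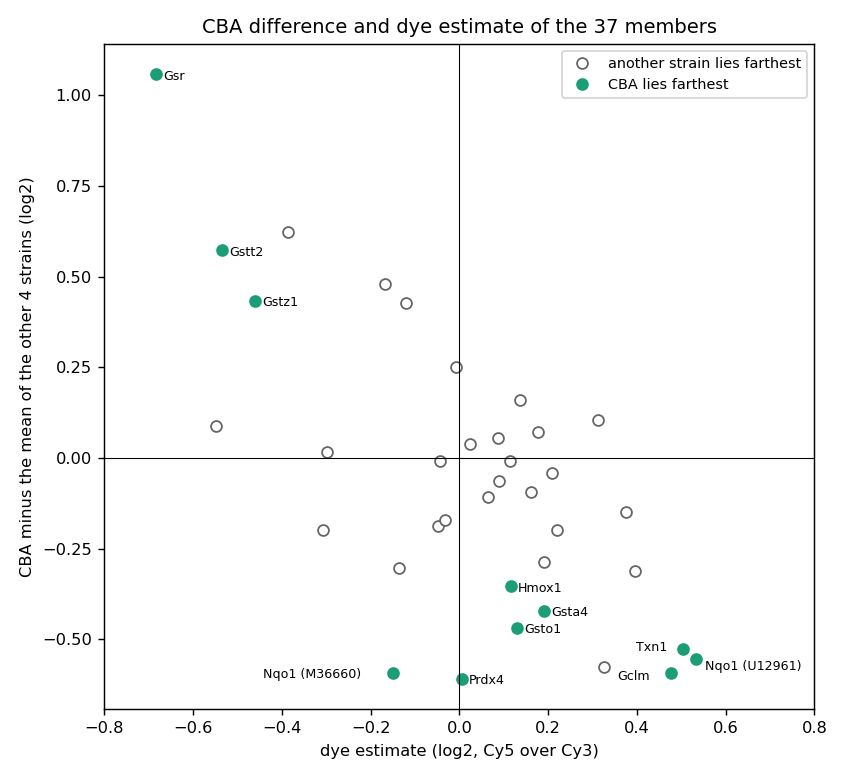
CBA minus the mean of the other 4 strains (y axis, log2) against the dye estimate of Cy5 over Cy3 (x axis, log2) for the 37 members, with those in which CBA lay farthest filled and named. Gsr lies at the upper left, with a dye estimate of -0.68 and a CBA difference of 1.06, and Gclm, Txn1 and Nqo1 (U12961) at the lower right.

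After the values had been seen, members were counted by the signs of their strain levels. In 7 features (both of Nqo1, Gclm, Txn1, Prdx4, Gsta2 and Gsta4), CBA and BL10 lay below the mean of the strains and BL6, DBA and BALB above it. This was 18.9% of the members beside 20.0% of all features. The opposite signs were found in 3 members, and in 12.2% of all features.

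Promoters of members from RefSeq (GRCm38.p6) were searched for the core of the antioxidant response element, TGACNNNGC, on both strands, in windows of 250 bases before to 50 after each annotated start. Of the 35 genes 28 had at least 1 window. The other 7 (Gclc, Gsr, Hmox1, Gsta4, Gstt2, Sod3 and Txnl1) had none and were not searched. Of the 28 genes, 5 held the core in 1 window: Gclm, Sod1, Prdx1, Gstm5 and Txnrd1. That was 5 of 39 windows (12.8%), beside 12.4% of all 32851 windows. The 250 bases before the start are shown for Sod1, which was called between BL6 and BALB, and for Gclm, the ligase subunit, with the core in capitals, which reads on the opposite strand in both, and for Park7, in whose window the core was not found.
Sod1 (chr16:90220512-90220761, plus strand): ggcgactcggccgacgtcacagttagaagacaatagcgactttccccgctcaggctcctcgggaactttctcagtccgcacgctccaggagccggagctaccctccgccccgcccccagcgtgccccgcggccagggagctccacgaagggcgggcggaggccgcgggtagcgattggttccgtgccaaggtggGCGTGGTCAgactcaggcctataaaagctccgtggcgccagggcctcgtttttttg
Gclm (chr3:122245307-122245556, plus strand): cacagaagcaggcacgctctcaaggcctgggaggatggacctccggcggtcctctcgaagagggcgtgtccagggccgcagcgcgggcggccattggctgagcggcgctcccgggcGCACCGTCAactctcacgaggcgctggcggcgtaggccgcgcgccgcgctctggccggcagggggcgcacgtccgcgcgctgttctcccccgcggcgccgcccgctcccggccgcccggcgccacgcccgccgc
Park7 (chr4:150909922-150910171, minus strand): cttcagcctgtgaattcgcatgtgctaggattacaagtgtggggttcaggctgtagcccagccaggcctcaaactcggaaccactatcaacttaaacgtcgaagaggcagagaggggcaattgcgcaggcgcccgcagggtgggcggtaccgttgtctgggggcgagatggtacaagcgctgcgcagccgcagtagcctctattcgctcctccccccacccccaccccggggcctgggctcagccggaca
The core began 56 bases before the start in Sod1 and 134 bases before it in Gclm. Sod1 was lower in BL6 than in BALB, and Gclm was at 0.25 in BL6 and 0.21 in BALB. A match of these letters does not show that NRF2 binds there.

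The other genes of the same pathways were taken in lists chosen by symbol. In these lists 0 features were called in the F test or in any strain against the other 4. Of all features, 0.130% were called in the F test, and 14.0% had an unadjusted p under 0.05 in it. Among 14 features of glutathione supply and use, Mgst1, a membrane-bound transferase, was the only one at an unadjusted p under 0.05, with -0.40 in CBA and 0.56 in BALB (adjusted p = 0.335). Gss, the enzyme that completes glutathione, lay between -0.48 in CBA and 0.29 in BL6 (adjusted p = 0.425). Of 7 features of NADPH supply, which feeds both reductases, and of 16 of oxidant sources, 0 passed.

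Among 19 features of NRF2, KEAP1, their partners and targets, Nfe2l1, a relative of NRF2, and Hspb1, a small heat shock protein, passed at an unadjusted p under 0.05, with adjusted p-values of 0.331 and 0.341. Both were lowest in CBA, at -0.41 and -0.57, and highest in BALB, at 0.43 and 0.31. Of 21 features of iron and metal handling 5 passed, beside 14.0% of all features. They were those of Slc11a2, Slc30a1, Ireb2, Mtf1 and 1 of the 4 features of Trf (M23015). Mtf1, the metal-sensing factor that drives metallothionein genes, was at -0.25 in BL6 and 0.30 in BALB, and Slc30a1, a zinc exporter it controls, at -0.33 and 0.49 (adjusted p = 0.354 and 0.224). A link between them was not tested. Of 9 features of selenoproteins and repair, Msrb1, which reduces oxidised methionine, passed, with -0.23 in CBA and 0.28 in BL10 (adjusted p = 0.228). The median range was 0.36 to 0.54 over these 6 lists, beside 0.52 over the members.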

How the data were processed

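RNA of quadriceps muscle from 2 males of each of 5 strains was measured by 2-colour hybridisation to duplicate-spotted oligonucleotide arrays. The authors read the spots with GenePix Pro 3.0, subtracted local background and normalized by variance stabilization (VSN), which shrinks the ratios of dim spots. The deposited values were natural log (ln) ratios of Cy5 over Cy3 per spot, and this scale and direction were inferred from VSN and the dyes in the labels, not stated in a header. Spots marked by GenePix are not identified in these values, so features near background were not filtered.

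The values were converted to log2, duplicate spots averaged, 80 control features averaged to 1, and each array centred on its median, which left 7697 features. Genes were named through the annotation of the platform, and all 35 member symbols were found in a RefSeq table of GRCm38.p6. The 2 arrays with the same values were left out. In limma 3.58.1 (R 4.3.3) each feature was fitted with strain terms and a dye term by generalised least squares, with a common ratio of the variance between animals to that between arrays (0.446, restricted maximum likelihood), which makes the animal the replicate. This left 3 residual degrees of freedom, with 6.13 shared across features. Strains were compared with the moderated F test, each strain against the mean of the other 4, and, added after seeing the data, in pairs. The method of Benjamini and Hochberg gave adjusted p-values over all 7697 features, and the FDR was set at 10%. The fit was tested on simulated data.

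The members, the other gene lists, the markers and the tests were chosen with earlier results of these data known. Values on every array were given for members past the FDR and for the member of each class with the smallest p where under 0.05, and strain levels for members under 0.05, the 2 with the smallest p of each class and a set of well-known enzymes. Gclc was given on every array for its call between BL6 and BALB. The alternatives were other normalizations, each spot alone, other dye, variance and array choices, an animal number block and each animal left out. Chosen after seeing the data was a fit with the second spot alone on BL6 1 against DBA 2. Figures were drawn with matplotlib 3.10.9 in Python 3.11.15.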

Additional observations from a re-analysis of the deposited data

How the results depend on the processing

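The counts of members rest on few animals. The main counts were 0 between strains, 1 in BL6, 0 in the other strains, 3 between BL6 and BALB and 5 at an unadjusted p under 0.05. The shares of all features beside them were 0.130%, 0.0650% (lower in BL6), 0.0780%, 4.52% and 14.0%. Shares under the other settings are not given here. The counts below therefore show how calls of members shifted, and not whether members differed from all features. Scaling arrays to the same spread gave 1, 0, 1, 1 and 7, quantile normalization 1, 1, 1, 1 and 6, and duplicate spots as separate measurements 3, 2, 0, 5 and 11. All 10 arrays as labelled gave 0, 0, 0, 0 and 4, no dye term 0 throughout, and the ordinary test 0, 0, 0, 0 and 7. The shared values as BL6 2 against CBA 1 gave 0, 0, 0, 1 and 2, and as BALB 1 against CBA 2 they gave 0, 1, 0, 1 and 2. The first spot alone gave 0, 1, 0, 0 and 5, the second 0, 0, 0, 0 and 4, and an FDR of 5% 0, 0, 0, 0 and 5. With arrays as independent the counts were 0, 0, 0, 2 and 5. With the animal number as a replicate block they were 0, 0, 0, 3 and 6, and Park7 in BL6 was -1.06 (adjusted p = 0.215), while the numbers mark no shared origin of the animals. No centring and robust eBayes left all 5 counts as they were. With the second spot alone on BL6 1 against DBA 2, chosen after seeing the data, the counts were 0, 1, 1, 3 and 5. The members were then Prdx4 in BL6 at 0.65 (adjusted p = 0.0613), Gsr in CBA at 1.13 (adjusted p = 0.0820), and Gclc, Sod1 and Gstp1 between BL6 and BALB. The causes were not tested.

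Leaving out 1 animal at a time gave 0 to 28 members between strains, 0 to 22 in BL6, 0 to 18 in the other strains, 1 to 19 between BL6 and BALB and 2 to 27 at an unadjusted p under 0.05. The fit without DBA 1 had 1 residual degree of freedom and a variance ratio of 3.46 beside 0.446. The fits without BALB 2 and without BL6 1 also had 1 residual degree of freedom. A fit without DBA replicate 2 could not be had. Park7 in BL6 lay between -1.195 and -0.999 in the other fits that could be made, except at -0.26 without BL6 1. All fits in that range kept the first Park7 spot on BL6 1 over DBA 2. Ratios carry no signal over background, so how far dim spots set these values is unknown.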
